A study of Mus musculus with 30 samples.

Results

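The HOX cluster genes of the mouse were followed in RNA-seq libraries of healing tibial fracture callus. The members are all protein-coding genes whose symbol is Hoxa, Hoxb, Hoxc or Hoxd followed only by a number. There are 39 of them, 11 in the HOXA cluster on chromosome 6, 10 in HOXB on chromosome 11, 9 in HOXC on chromosome 15 and 9 in HOXD on chromosome 2, and all 39 are listed among the 43629 genes of the count table. Summed over the 30 libraries, 27445 genes were above 0 counts, and only Hoxb13 and Hoxd12 of the HOX genes were not.

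Male C57BL/6J mice, 20 weeks of age, were either lean or had diet-induced obesity (DIO) from a high-fat diet, and every mouse received an open osteotomy of the right tibia held by an intramedullary nail, so that no group is unfractured. Callus of both diets was taken 3, 5, 7 and 10 days after fracture (d3 to d10) and callus of DIO mice also after 14 and 21 days (d14, d21), from 3 mice per diet and day, with 1 callus per library. Lean d14 and d21 libraries were not analysed here, so the diets are compared only up to d10. Surrounding soft tissue and intact bone were left behind at harvest, but the whole callus was lysed, so cartilage, bone, blood, vessels and any attached muscle share a library.

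HOX genes encode transcription factors that bind DNA through a homeodomain, and in the embryo their order along each cluster mirrors the order in which they are used along the body axis and the limb. In the limb, genes toward the 5′ end of the clusters lay out successive segments, the group 11 genes being known for the segment that holds the tibia and fibula in the hindlimb and the radius and ulna in the forelimb. Connective tissue and skeletal progenitor cells of the adult are known to keep a HOX profile that matches the place where they arose, and HOX group 11 expression is known in stromal cells of the periosteum and marrow of these bones.

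The part of each transcript that encodes the homeodomain is called the homeobox. The group 11 homeoboxes are shown as close relatives. In read counts over the 30 libraries, Hoxd11 had 7, far fewer than Hoxa11 with 3912 and Hoxc11 with 2908. Hoxc10 is shown as the HOX gene with the highest mean level per kilobase over the 30 libraries. They were read from GENCODE M21 transcripts (GRCm38). In the 3 group 11 sequences, capitals mark the 45 of 180 bases at which the 3 genes are not all alike. In Hoxc10, capitals mark the 46 bases found in none of the 3 at that position.
Hoxa11, chr6:52243402-52243581, minus strand, exon 2: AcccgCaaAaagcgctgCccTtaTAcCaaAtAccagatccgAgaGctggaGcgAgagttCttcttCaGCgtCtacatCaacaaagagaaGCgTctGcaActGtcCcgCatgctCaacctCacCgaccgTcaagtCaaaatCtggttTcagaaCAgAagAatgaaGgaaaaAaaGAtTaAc
Hoxc11, chr15:102956480-102956659, plus strand, exon 2: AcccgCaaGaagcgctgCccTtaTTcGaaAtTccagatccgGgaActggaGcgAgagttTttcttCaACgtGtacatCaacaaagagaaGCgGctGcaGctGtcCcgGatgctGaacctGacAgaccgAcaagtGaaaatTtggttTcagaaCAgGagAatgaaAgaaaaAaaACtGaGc
Hoxd11, chr2:74683917-74684096, plus strand, exon 2: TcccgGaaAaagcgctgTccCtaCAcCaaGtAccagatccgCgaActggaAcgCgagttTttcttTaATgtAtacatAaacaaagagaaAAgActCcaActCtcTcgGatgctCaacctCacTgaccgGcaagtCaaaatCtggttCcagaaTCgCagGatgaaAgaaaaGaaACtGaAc
Hoxc10, chr15:102970848-102971027, plus strand, exon 2: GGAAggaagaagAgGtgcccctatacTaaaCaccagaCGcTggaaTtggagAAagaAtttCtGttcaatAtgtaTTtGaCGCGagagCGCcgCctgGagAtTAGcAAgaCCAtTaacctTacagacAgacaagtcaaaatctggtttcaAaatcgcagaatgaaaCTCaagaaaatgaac
Each of these 180-base homeoboxes lies within exon 2 of a gene annotated with 2 exons in that transcript. Hoxa11 and Hoxc11 were identical at 86.7% of the bases, Hoxa11 and Hoxd11 at 80.6%, and Hoxc11 and Hoxd11 at 79.4%, and the longest run of identical bases between any of these 3 was 20. Hoxc10 was identical to Hoxc11 at 67.2% of the bases. Among 733 pairs of HOX genes whose spans do not overlap, 1 pair, Hoxa6 and Hoxb4, shared an identical stretch of more than 50 bases anywhere in the transcripts (52 bases).

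Total counts per library ran from 13247122 to 26365620, and the HOX genes together took 1267 to 4394 of them. Levels are given as CPM, the counts per 1000000 counts of the library after scaling with TMM factors. A gene with 3 counts or more in a library was called detected there, and 3 counts are 0.106 to 0.230 CPM depending on the library. This limit covers counting error only, not the spread between mice. A lean library stood apart: lean d10 replicate 1 had the lowest mean correlation with its own group (r = 0.944 across genes), and its 10 muscle genes summed to 969.9 CPM against 9414 and 13830 in the other two mice. On DIO d21, 7 erythroid genes summed to 27030 to 38420 CPM in the 3 mice, against 722.9 to 814.6 on DIO d3. The count of HOX genes called on lean d10 is also given without lean d10 replicate 1. The count between any DIO days is also given without DIO d21. Most other results of lean d10 and DIO d21, such as those of the gene lists, are given only with these libraries.

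Most HOX genes of groups 2 to 11 were on in callus, and most of groups 12 and 13 were not. Of the 39 genes, 25 were detected in all 30 libraries, 6 in 12 to 29 libraries, 4 in 1 to 8 libraries and 4 in none. The HOXC and HOXD genes of groups 12 and 13 and Hoxb13 were at or near 0 counts. HOXA genes took 45.7% of all HOX counts, HOXC 32.9%, HOXB 11.1% and HOXD 10.3%. By position, 46.1% of the HOX counts lay in groups 9 to 13, 45.8% in groups 4 to 8 and 8.09% in groups 1 to 3.

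**Figure D1:**
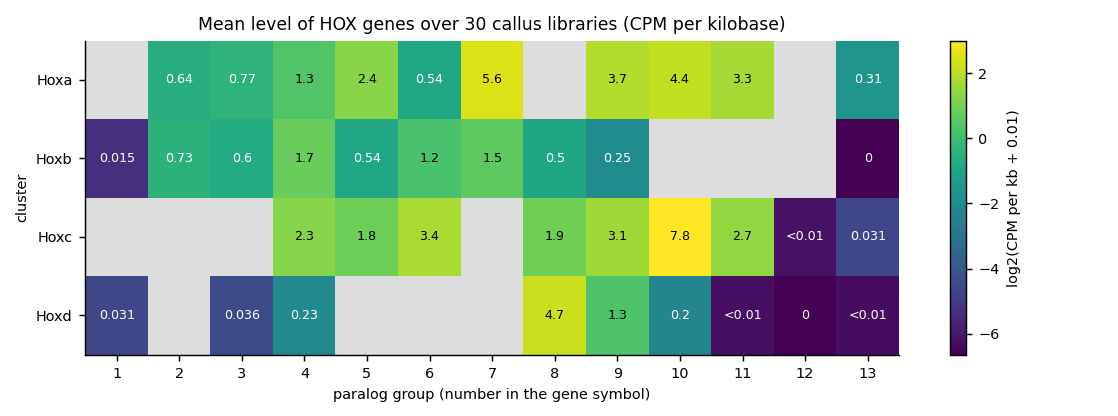
Mean level of HOX genes over the 30 callus libraries in CPM per kilobase of exon (colour on a log2 scale, number in each cell), with the clusters as rows and the paralog groups as columns. Grey cells have no gene or are not shown. Hoxc10 is highest at 7.82, Hoxa11 and Hoxc11 lie at 3.28 and 2.73, and Hoxd11, Hoxd12 and Hoxd13 lie under 0.01.

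Levels between genes were compared per kilobase of exon. Hoxc10, which acts in hindlimb and lumbar patterning, led with 7.82 ± 2.62 CPM per kilobase (SD over 30 libraries), which is higher than 65.6% of the detected genes. It was followed by Hoxa7 (5.601 ± 1.09), Hoxd8 (4.73 ± 1.70), Hoxa10 (4.36 ± 1.10), Hoxa9 (3.68 ± 0.818), Hoxc6 (3.41 ± 1.37), Hoxa11 (3.28 ± 1.44), Hoxc9 (3.07 ± 1.19), Hoxc11 (2.73 ± 0.919) and Hoxa5 (2.44 ± 0.607). Between each pair of neighbours in this order the difference was smaller than the larger of the 2 standard deviations. These standard deviations span days and diets and leave out that both genes come from the same libraries. The order of neighbours was not tested. By group, Hoxc10 had the highest mean in 8 of 10 groups, while Hoxa10 led on DIO d14 (5.46 against 5.25 for Hoxc10) and Hoxa7 on DIO d21 (4.01 against 2.67). With the longest transcript in place of all exons, Hoxa7 stood at 7.93 CPM per kilobase, above Hoxc10.

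The drop along HOXD was steep. Hoxd8 was at 4.73 CPM per kilobase and Hoxd9 at 1.27, while Hoxd10 was at 0.197 with at least 3 counts in 19 of 30 libraries. Hoxd11 had 7 counts in all 30 libraries together and none in 27 of them. The 7 counts came from 3 mice, with 3 counts in 1 DIO d3 mouse, 3 counts in 1 lean d7 mouse and 1 count in 1 lean d5 mouse. Hoxd13, the HOXD gene of the digits, had 3 counts and Hoxd12 had 0 counts. Neighbouring HOXA and HOXC genes of group 11 were detected in every mouse, so the group 11 genes were split between clusters in this tissue.

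Group 13 genes, which pattern hand and foot, were low in all clusters. Hoxa13 was detected in all 30 libraries but only at 0.314 CPM per kilobase, Hoxc13 had 43 counts in all and Hoxb13 had 0. Hoxc12 had 2 counts. At the opposite end, the anterior genes Hoxb1 and Hoxd1 had 17 and 29 counts, while Hoxa2, Hoxa3, Hoxb2 and Hoxb3 were detected in all 30 libraries at 0.598 to 0.769 CPM per kilobase. Hoxd3 and Hoxd4 share 62.3% and 52.3% of their exon bases with other genes of the same strand, with Gm28230 and with each other, so their counts of 79 and 353 are uncertain.

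Some genes that mark a hindlimb were on. Pitx1 and Tbx4, transcription factors known to specify the hindlimb, were detected in all 30 libraries, at 0.807 to 27.6 CPM and 0.577 to 12.6 CPM. Tbx5, their forelimb counterpart, reached 3 counts in 2 libraries and had a highest value of 0.226 CPM. Shox2 and Prrx1, limb mesenchyme factors, were detected in all 30 libraries with medians of 29.5 and 136 CPM. Isl1, another limb factor, reached 3 counts in 0 libraries and had a highest value of 0.116 CPM. The label of a hindlimb callus and the levels of Pitx1, Tbx4 and Tbx5 thus point the same way, while Isl1 was not detected.

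Hoxa11 (chr6:52242106-52245810, minus strand, 2287 exon bases) was the group 11 gene with the highest mean over the 30 libraries. Per kilobase, the mean of Hoxc11 was above it on lean d3 (3.003 against 2.543), lean d10 (2.163 against 1.914) and DIO d3 (3.897 against 3.175). In lean mice it was at 6.25, 4.06 and 7.13 CPM on d3, 5.31, 10.4 and 8.55 on d5, 6.92, 9.04 and 7.89 on d7 and last 2.07, 3.23 and 7.83 on d10. In DIO mice it was at 6.18, 7.50 and 8.11 CPM on d3, 11.1, 13.3 and 14.2 on d5, 9.78, 14.1 and 11.6 on d7, 5.36, 5.58 and 9.95 on d10, 8.57, 4.36 and 6.35 on d14, and 3.11, 3.02 and 4.29 on d21. By group mean, the highest was DIO d5 and the lowest DIO d21. Of its exon bases, 35.0% are covered by Hoxa11os on the opposite strand, a noncoding RNA at 0.692 to 3.94 CPM, and although the library kit keeps strand, the strand setting of the counting is not given in the sources used here.

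Hoxc11 (chr15:102954427-102957708, plus strand, 2021 exon bases) is known for the hindlimb, and its diet groups overlapped on every day. In lean mice it was at 7.95, 4.27 and 5.98 CPM on d3, 8.06, 6.23 and 5.12 on d5, 6.09, 4.55 and 6.43 on d7 and last 4.76, 4.11 and 4.25 on d10. In DIO mice it was at 7.08, 7.71 and 8.85 CPM on d3, 8.31, 6.78 and 5.63 on d5, 6.27, 4.39 and 7.15 on d7, 5.21, 6.66 and 3.18 on d10, 4.91, 4.36 and 4.59 on d14, and 0.807, 3.14 and 2.45 on d21. All 3 mice of DIO d14 and of DIO d21 lay below all 3 mice of DIO d3. Hoxd11 (chr2:74679557-74687016, plus strand, 4212 exon bases) did not pass the filter on low counts and was not tested.

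**Figure D2:**
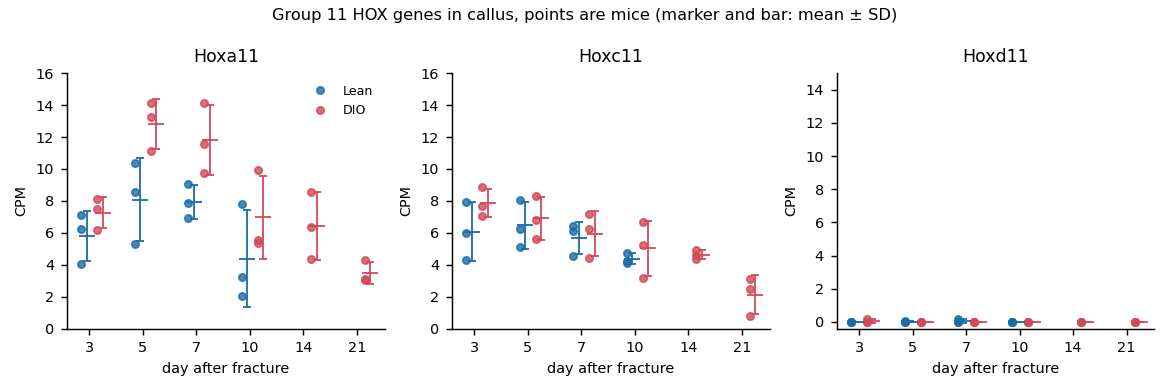
CPM of Hoxa11, Hoxc11 and Hoxd11 (vertical axes) by day after fracture (horizontal axes) in lean (blue) and DIO (red) mice, each point 1 mouse, with mean ± SD (n = 3). Hoxa11 is highest on DIO d5 at 11.1 to 14.2 CPM, Hoxc11 is lowest on DIO d21 at 0.807 to 3.14 CPM, and Hoxd11 stays at or under 0.180 CPM.

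No HOX gene passed the test between the diets on any of the 4 days. Differences were tested with the quasi-likelihood test of edgeR with Benjamini-Hochberg adjustment over all genes tested, here and below. On d3, 0 of 28 HOX genes tested passed an adjusted p of 0.05 with edgeR (all genes: 0%), and 2 had an unadjusted p under 0.05 (all genes: 15.1%). On d5, 0 of 29 passed (all genes: 1.08%) and 3 had an unadjusted p under 0.05 (all genes: 18.5%). On d7, 0 of 28 passed (all genes: 2.32%) and 3 had an unadjusted p under 0.05 (all genes: 16.6%). On d10, 0 of 25 passed (all genes: 0%) and 2 had an unadjusted p under 0.05 (all genes: 7.05%). DESeq2 called 0 HOX genes on each of these days. In simulated data, the edgeR test of d7 found 1 of 50 changes of 2-fold and 21 of 48 of 4-fold in genes under 20 CPM. Most HOX genes lay under 20 CPM, so 2-fold diet differences would mostly be missed, and these counts do not show their absence. The median log2 difference of the HOX genes tested lay between -0.16 (d7) and 0.26 (d3), against -0.00126 to 0.0156 over all genes.

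Hoxa11 came nearest among the group 11 genes. It was higher in every DIO mouse than in every lean mouse on d5 (log2 difference 0.66 ± 0.26 SE, adjusted p = 0.233) and on d7 (0.58 ± 0.24, adjusted p = 0.262). Such separation of the groups upward was seen for 10.8% of all genes on d5 and 9.95% on d7. On d3 and d10 the groups overlapped, with differences of 0.31 ± 0.25 and 0.67 ± 0.51, which ran from 0.103 to 0.485 and from 0.318 to 1.40 when 1 mouse was left out. Of 11 chondrocyte genes, all had a positive diet difference on both days, but 0 passed with edgeR on d5 and 2 on d7. They summed to 8819 to 16990 CPM on DIO d5 and 2589 to 11370 on lean d5, and to 16770 to 39070 on DIO d7 and 5835 to 17100 on lean d7. Matn1, a cartilage matrix gene, had fewer than 3 counts in 7 of the 30 libraries. Of 10 leukocyte genes, 5 were lower in DIO mice on d5 and 2 on d7 by the test, where 1.08% and 2.32% of all genes passed in either direction. The part of these cells in the Hoxa11 values was not tested. The diet differences of Hoxc11, from d3 to d10, were 0.37 ± 0.25, 0.10 ± 0.25, 0.07 ± 0.29 and 0.21 ± 0.35.

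The change of the diet difference from day to day was tested over the 24 libraries of d3 to d10, and 0 of 30 HOX genes passed with edgeR (all genes: 1.65%). In simulated data, the same test found 2 of 36 changes of 2-fold and 15 of 52 of 4-fold in genes under 20 CPM. DESeq2 called 1, Hoxb6, and 5 HOX genes had an unadjusted p under 0.05 with edgeR (all genes: 18.4%). Time courses of the diets were compared as curves over the same 24 libraries, a test in which a constant diet difference also counts. In it, 1 of 30 HOX genes passed (all genes: 8.13%). This was Hoxb6, a gene of trunk and limb bud patterning, at an adjusted p of 0.0461 with edgeR. Its values in lean mice were 1.23, 2.37 and 3.29 CPM on d3, 3.04, 3.06 and 3.38 on d5, 1.72, 3.66 and 3.16 on d7 and last 1.44, 1.75 and 1.02 on d10. Its values in DIO mice were 3.48, 1.99 and 2.89 CPM on d3, 2.44, 1.98 and 2.39 on d5, 0.752, 1.61 and 1.87 on d7 and last 3.60, 3.84 and 2.61 on d10. The DIO mice were all below the lean mice on d5 (separated this way: 12.4% of all genes) and all above them on d10 (7.11% of all genes). This call was lost in 18 of the 24 fits that leave out 1 mouse, with the replicate block and without a filter on low counts.

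Over the lean days, 2 of 30 HOX genes changed in the test between any days (all genes: 19%). These were Hoxb4 (adjusted p = 0.00707) and Hoxb3 (adjusted p = 0.0211), neighbours in the HOXB cluster with roles in the hindbrain and in blood-forming cells. Against d3, 0 HOX genes passed with edgeR on lean d5 (all genes: 0.449%), and 2 had an unadjusted p under 0.05 (all genes: 14.8%). On lean d7, 0 passed (all genes: 1.67%) and 3 had an unadjusted p under 0.05 (all genes: 15.5%). DESeq2 called 0 on both days. On d10, 3 of 30 passed (all genes: 29.3%), with Hoxb4 and Hoxb3 lower (all genes, lower: 14.1%) and Hoxc8 higher (all genes, higher: 15.2%). The 3 lean comparisons share the same d3 libraries.

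Hoxb4 was at 6.20, 8.55 and 5.19 CPM on lean d3 and at 1.88, 1.82 and 1.62 on lean d10. The groups did not overlap, as for 21.6% of all genes downward. It fell by 1.88 ± 0.29 on the log2 scale (adjusted p = 0.0012), and this call was made in all 12 fits that leave out 1 lean mouse. In DIO mice the same gene was at 6.36, 4.02 and 3.50 CPM on d3 and at 6.21, 2.75 and 2.33 on d10. Its DIO difference between those days was -0.29 ± 0.42 (adjusted p = 0.657), and the change of its diet difference between days did not pass the test (adjusted p = 0.198).

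Hoxb3 was at 2.46, 2.51 and 3.04 CPM on lean d3 and at 1.07, 1.62 and 1.56 on lean d10. It fell by 0.89 ± 0.29 (adjusted p = 0.0358), a call that was lost in 5 of 12 fits that leave out 1 lean mouse (each of the lean d3 mice, lean d5 replicate 2 or lean d10 replicate 1). The noncoding Hoxb3os, which lies on the opposite strand and covers 52.9% of the exon bases of Hoxb3, rose by 1.20 ± 0.32 over the same days (adjusted p = 0.015), from 1.23 to 2.81 CPM on average.

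Hoxc8 was at 3.39, 3.21 and 5.54 CPM on lean d3 and at 9.46, 6.87 and 6.22 on lean d10, also without overlap (21.1% of all genes upward). It rose by 0.91 ± 0.31 (adjusted p = 0.0414), a call that was lost in 6 of 12 such fits (lean d3 replicates 1 and 2, lean d5 replicate 3, lean d7 replicate 3, lean d10 replicates 1 and 2). Without lean d10 replicate 1, the library that stood apart, 1 HOX gene (Hoxb4) passed on lean d10, and 1 passed also without lean d3 replicate 1. Without lean d10 replicate 3 the count was 6, with Hoxa11 among them at a log2 difference of -1.13 (adjusted p = 0.039), against -0.39 ± 0.43 with all libraries (adjusted p = 0.52). Of 11 chondrocyte genes, 10 rose (all genes, higher: 15.2%), from summed levels of 943.3 to 1502 CPM on lean d3 to 16520 to 74950 on lean d10. The 74950 CPM was that of lean d10 replicate 1, and replicates 2 and 3 were at 17420 and 16520. Of 10 leukocyte genes, 6 fell (all genes, lower: 14.1%) and 1 rose, from 5602 to 7743 CPM to 2229 to 3788. Their part in these HOX values was not tested.

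The HOXC genes fell late in DIO callus. Over the 6 DIO days, 15 of 30 HOX genes changed (all genes: 59.1%), a share below that of all genes. They included all 7 HOXC genes tested. Hoxd10, also among the 15, lost its call in 11 of 18 fits that leave out 1 DIO mouse. Without DIO d21, 5 of 30 changed, which were Hoxa11, Hoxc4, Hoxc5, Hoxc6 and Hoxc10. The share of all genes in that fit is not given here, so this count cannot be set against it. Against DIO d3, 0 HOX genes passed with edgeR on d5 (all genes: 1.68%), and 4 had an unadjusted p under 0.05 (all genes: 13.7%). On d7, 0 passed (all genes: 7.3%) and 2 had an unadjusted p under 0.05 (all genes: 23.5%). On d10, 0 passed (all genes: 21.8%) and 4 had an unadjusted p under 0.05 (all genes: 35.1%). DESeq2 called 0 on each of these 3 days. On d14, 5 of 30 passed (all genes: 26.3%), of which 4 HOXC genes, Hoxc4, Hoxc5, Hoxc6 and Hoxc10, fell (all genes, lower: 12.5%) and Hoxa9 rose (all genes, higher: 13.8%). On d21, 12 of 30 passed (all genes: 45.3%), and all 12 fell (all genes, lower: 21.8%). All 5 comparisons share the DIO d3 libraries.

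**Figure D3:**
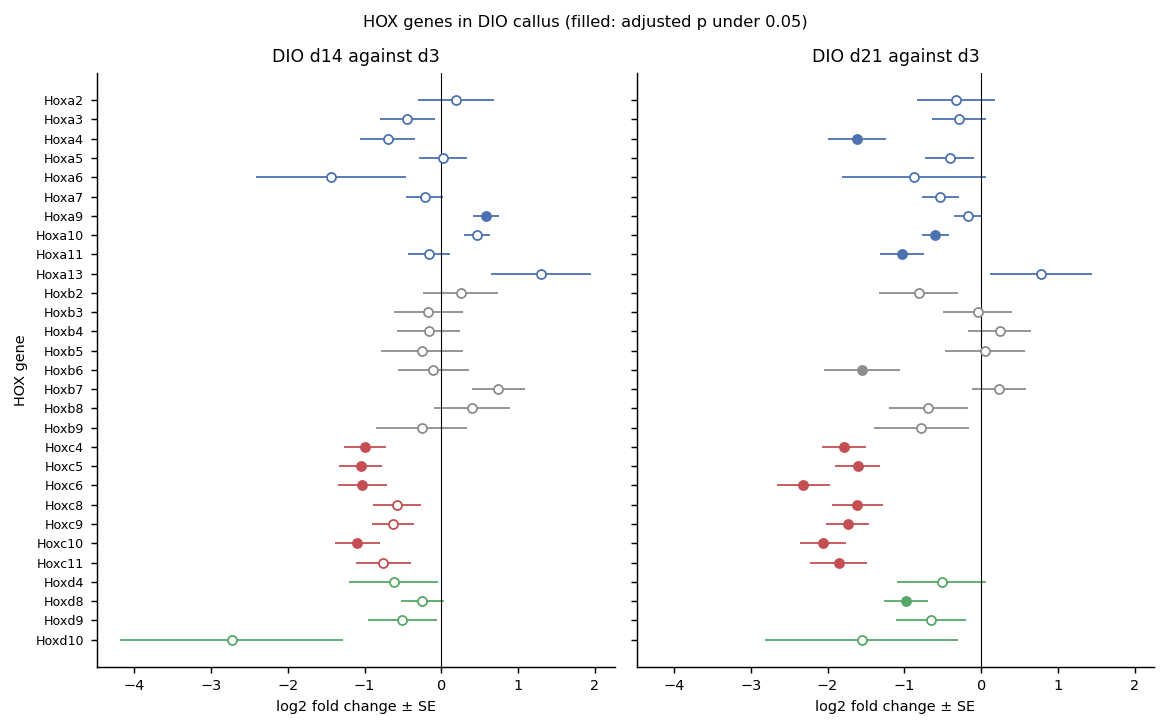
Log2 fold change ± SE (horizontal axis) of the HOX genes tested and reported (vertical axis, ordered by cluster) on DIO d14 and d21 against DIO d3, with filled points at an adjusted p under 0.05. All 7 HOXC genes (red) are filled on d21, with a median of -1.78, and 4 of them are filled on d14.

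On DIO d21 the 7 HOXC genes had a median log2 fold change of -1.78, against -0.53 for the 11 HOXA genes, -0.37 for the 8 HOXB genes, -0.82 for the 4 HOXD genes and 0.03 for all 16995 genes. In the same order, 7, 3, 1 and 1 of these HOX genes fell. Hoxc10 was at 21.5, 22.99 and 20.5 CPM on d3 and at 2.60, 7.95 and 4.75 on d21. It fell by 2.06 ± 0.31 (adjusted p = 4.53e-05). Hoxc6, a gene of thoracic and limb bud patterning, was at 13.1, 12.4 and 14.3 CPM on d3 and at 1.27, 2.44 and 4.08 on d21, and fell by 2.32 ± 0.34 (adjusted p = 4.31e-05). Every d21 mouse was below every d3 mouse for all 7 HOXC genes, and over all clusters this was so for 15 HOX genes (all genes: 27.3%). On d14 already, all 7 HOXC genes lay below d3 without overlap (all genes: 21.7%), with a median of -0.99. Of the 4 calls on d14, that of Hoxc6 was lost in 3 of the 18 fits that leave out 1 DIO mouse (DIO d3 replicate 3, DIO d14 replicates 1 and 2) and that of Hoxc4 in 1 (DIO d3 replicate 1).

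The remaining HOXC genes fell by 1.61 to 1.85. Hoxc4 was at 10.49, 6.26 and 9.59 CPM on d3 and at 1.73, 2.79 and 2.96 on d21 and fell by 1.78 ± 0.28 (adjusted p = 8.76e-05). Hoxc9, a gene of the thoracic axis, was at 8.52, 9.36 and 9.40 CPM on d3 and at 1.73, 3.37 and 2.91 on d21 and fell by 1.74 ± 0.28 (adjusted p = 9.99e-05). Hoxc5 and Hoxc8 fell by 1.61 ± 0.29 and 1.61 ± 0.33. Hoxc5 and Hoxc10 share 5.37% and 8.70% of their exon bases with each other.

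Of the group 11 genes, Hoxc11 fell by 1.85 ± 0.37 on DIO d21 (adjusted p = 0.000652), and Hoxa11 fell by 1.04 ± 0.29 (adjusted p = 0.0068). Before that, Hoxa11 stood above all DIO d3 mice in all mice of d5 (0.82 ± 0.28, adjusted p = 0.162; 14% of all genes stood apart this way) and of d7 (0.72 ± 0.28, adjusted p = 0.119; 13.2% of all genes), and neither passed. Hoxc11 had a negative difference from d3 on every later day, of -0.19 ± 0.35 on d5, -0.38 ± 0.35 on d7, -0.64 ± 0.36 on d10 and -0.76 ± 0.35 on d14 (adjusted p = 0.127). The median of all genes lay between 0.00489 and 0.0421 in these comparisons.

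In the order of days, the summed HOXC level of DIO mice stood at 71.2 to 76.1 CPM on d3, 59.1 to 63.7 on d5, 47.6 to 68.6 on d7, 44.3 to 63.9 on d10, 36.3 to 40.0 on d14 and 10.9 to 23.7 on d21. All d14 mice lay below all d3, d5, d7 and d10 mice, and all d21 mice below all d14 mice. In lean mice the HOXC sum was at 36.6 to 64.4 CPM on d3 and 52.1 to 61.4 on d10. The share of HOXC in all HOX counts, which does not depend on scaling between libraries, was 39.4%, 42.5% and 41.8% in the DIO d3 mice and 14.9%, 23.2% and 23% in the DIO d21 mice. HOXA went from 70.3 to 71.4 CPM on DIO d3 to 42.5 to 54.2 on DIO d21, so it was also lower on d21. Whether the clusters fell by different amounts was not tested.

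**Figure D4:**
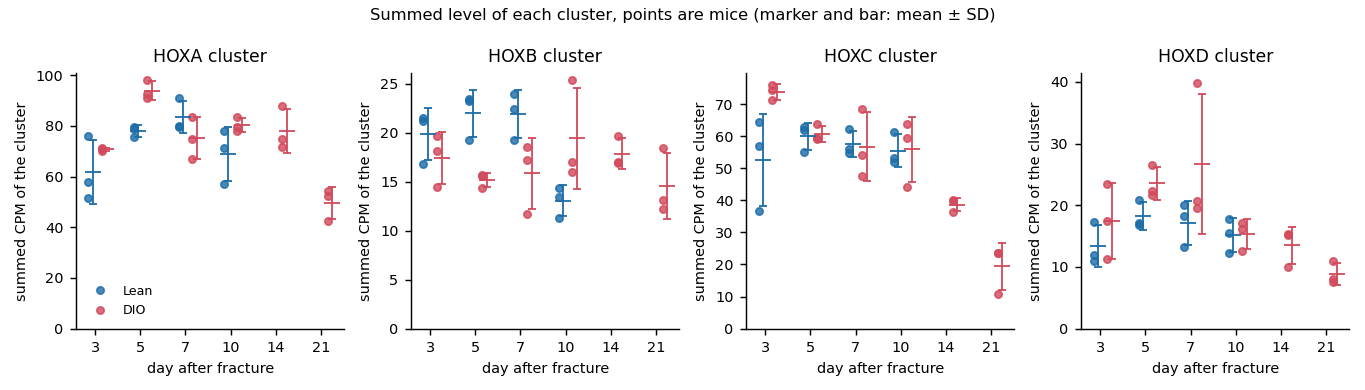
Summed CPM of the genes of each HOX cluster (vertical axes) by day after fracture (horizontal axes) in lean (blue) and DIO (red) mice, each point 1 mouse, with mean ± SD (n = 3). The HOXC sum of DIO mice is 71.2 to 76.1 CPM on d3 and 10.9 to 23.7 CPM on d21.

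Outside HOXC, 5 genes fell on DIO d21. Hoxa10, a gene of the upper hindlimb, was at 13.3, 14.0 and 11.7 CPM on d3 and at 7.73, 8.48 and 9.19 on d21, and fell by 0.60 ± 0.17 (adjusted p = 0.00962). Hoxd8 was at 17.2, 8.78 and 14.5 CPM on d3 and at 6.06, 7.31 and 6.74 on d21, and fell by 0.98 ± 0.28 (adjusted p = 0.00938). Hoxa4 fell by 1.62 ± 0.38 and Hoxb6 by 1.56 ± 0.49, from means of 2.86 and 2.79 CPM, and Hoxb6 lost its call without DIO d3 replicate 1. The fifth was Hoxa11.

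Hoxa9, next to Hoxa10, took another course. It was at 13.9, 18.5 and 18.3 CPM on DIO d3, at 30.1, 23.4 and 21.6 on d14 and at 14.99, 15.50 and 13.6 on d21. It rose by 0.58 ± 0.17 on d14 (adjusted p = 0.0191), a call lost without DIO d3 replicate 1 or DIO d14 replicate 1, and on d21 its difference from d3 was -0.18 ± 0.17 (adjusted p = 0.425). Hoxb3 and Hoxb4, the genes that fell in lean d10 callus, differed from DIO d3 by -0.04 ± 0.45 and 0.24 ± 0.41 on DIO d21.

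The other 18 HOX genes tested did not pass on DIO d21. Hoxa7, the second highest gene per kilobase, was at 19.1, 14.95 and 16.8 CPM on d3 and at 7.96, 14.9 and 11.7 on d21 (-0.53 ± 0.24, adjusted p = 0.0798). Every d21 mouse was below every d3 mouse for this gene, for Hoxa6 and for Hoxb9, without passing the test. Hoxa13 had the highest positive difference, 0.78 ± 0.67, on 0.231 to 0.813 CPM in the d21 mice. Hoxd9 was at 4.02, 1.70 and 1.78 CPM on d3 and at 1.21, 2.73 and 0.766 on d21 (-0.65 ± 0.46, adjusted p = 0.259), so that its groups overlapped. The 9 genes that did not pass the filter on low counts were Hoxb1, Hoxb13, Hoxc12, Hoxc13, Hoxd1, Hoxd3, Hoxd11, Hoxd12 and Hoxd13, and whether they changed was not detectable at this depth.

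The DIO d21 libraries differed from d3 in tissue make-up as well. In bulk libraries, fewer cells of a type and less RNA per cell cannot be told apart. All 7 erythroid genes rose, as they had on d14 (all genes, either direction: 45.3% on d21 and 26.3% on d14). Of 10 leukocyte genes, 6 rose and none fell, and of 10 muscle genes, 6 fell and none rose (all genes, lower: 21.8%). Of 14 mesenchymal and skeletal progenitor genes, 4 rose and 7 fell. The mesenchymal list summed to 23900, 39040 and 38750 CPM on DIO d3 and to 17480, 29350 and 19310 on DIO d21. The muscle list summed to 18770, 10570 and 15010 CPM on DIO d3 and to 348.4, 11580 and 2162 on DIO d21. The d21 mouse with 11580 CPM of muscle genes had a HOXC sum of 23.7 CPM. The mouse with 2162 had a HOXC sum of 23.5 CPM, and the mouse with 348.4 had the lowest, 10.9 CPM. The mouse with the lowest HOXC sum also had the highest erythroid sum (38420 CPM) and the lowest mesenchymal sum (17480 CPM) of the d21 mice. The part of muscle, blood and progenitor cells in the HOX values was not tested. Leaving out any 1 of the 18 DIO mice kept the calls of all 7 HOXC genes and of Hoxa11 on d21, and the count of HOX genes that fell ran from 11 to 15.

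Limb position factors, which act with HOX genes in the embryonic limb, fell in the same libraries. Of 17 on the list, 14 were tested on DIO d21, and 10 fell and none rose (all genes, lower: 21.8%), with a median of -1.23. Pitx1 was at 18.2, 21.8 and 18.4 CPM on DIO d3 and at 0.807, 2.44 and 1.79 on d21. It fell by 3.51 ± 0.35 (adjusted p = 1.26e-06). Tbx4 was at 6.54, 9.57 and 9.53 CPM on DIO d3 and at 0.577, 1.51 and 0.715 on d21, and fell by 3.17 ± 0.41 (adjusted p = 1.31e-05). Both had fallen on DIO d14 already, by 1.95 ± 0.32 and 1.96 ± 0.38.

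Other limb factors spanned a wide range on DIO d21. Prrx2, a mesenchymal homeobox gene, fell by 3.42 ± 0.40 and Lmx1b, which specifies the dorsal limb, by 2.88 ± 0.43. Prrx1, in contrast, was at a mean of 154 CPM on DIO d3 and 72.04 on d21 and fell by 1.07 ± 0.18, and Twist1 differed by 0.03 ± 0.19. On lean d10, Tbx4 fell by 0.84 ± 0.28 (adjusted p = 0.0401), while Shox2 and Twist1 rose by 0.89 ± 0.25 and 0.78 ± 0.20.

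**Figure D5:**
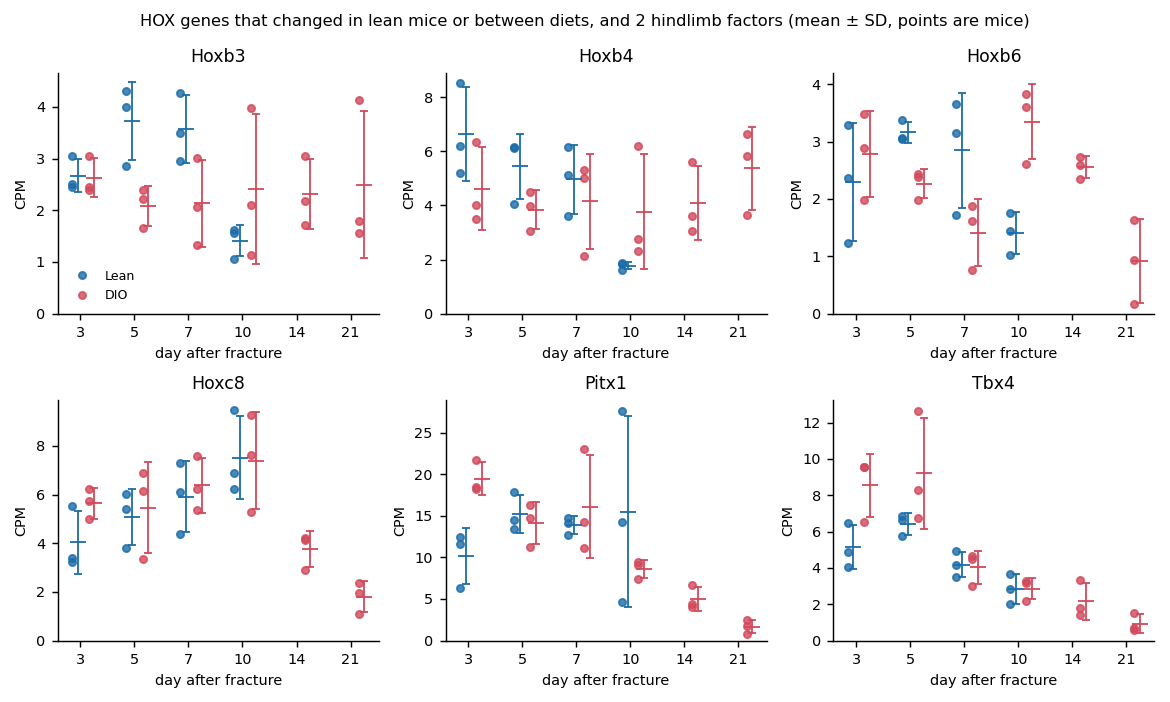
CPM (vertical axes) of Hoxb3, Hoxb4, Hoxb6, Hoxc8, Pitx1 and Tbx4 by day after fracture (horizontal axes) in lean (blue) and DIO (red) mice, each point 1 mouse, with mean ± SD (n = 3). Hoxb4 is at 1.62 to 1.88 CPM on lean d10, and Pitx1 is at 0.807 to 2.44 CPM on DIO d21.

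Genes that control HOX expression in the embryo, mostly parts of retinoic acid signalling, were counted in the same way. On DIO d21, 8 of 8 tested fell (all genes, lower: 21.8%), with a median of -1.19. Aldh1a2, which makes retinoic acid, fell by 4.36 ± 0.49 (adjusted p = 3.39e-06), and Cyp26b1, which degrades it, fell by 1.72 ± 0.34. On lean d10, 5 of 8 changed (all genes: 29.3%), and unlike on DIO d21 they went in both directions. Aldh1a2 fell by 3.88 ± 0.47, while Gdf11 was among those that rose, by 0.87 ± 0.17 (adjusted p = 0.00366 with edgeR). Cyp26a1, which also degrades retinoic acid, fell from 5.49, 5.23 and 6.28 CPM on lean d3 to 0, 0.202 and 0.120 on lean d10, at most 3 counts in each mouse, and no fold is given for it. Cofactors of the TALE class, which bind DNA together with HOX proteins, were split on DIO d21, where 2 of 11 rose and 2 fell (all genes, either direction: 45.3%). Pbx4 rose by 3.30 ± 0.70, and Pknox2 and Tgif1 fell by 1.93 ± 0.43 and 0.83 ± 0.18, while Meis1 differed by -0.35 ± 0.29.

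Of 16 Polycomb genes, which keep HOX genes silent, 6 rose and 1 fell on DIO d21, where 45.3% of all genes passed, so that this count is near that of all genes. Cbx7 rose by 1.60 ± 0.23 and Suz12 by 1.38 ± 0.20, and Pcgf2 fell by 1.22 ± 0.19. Among 10 Trithorax and MLL genes, which keep them active, 2 rose and 2 fell, which is also near or below it. Of the noncoding RNAs of the clusters, 7 of 19 were tested and none passed on DIO d21 with edgeR, with 1 at an unadjusted p under 0.05. Hotair, which lies in the HOXC cluster, was at 0.570 ± 0.497 CPM on d3 and 0.165 ± 0.0937 on d21 (SD, n = 3; adjusted p = 0.0934). Hottip, at the 5′ end of the HOXA cluster, reached 3 counts in 1 library.

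Across the 30 libraries, the genes with a mean of at least 1 CPM whose log2 CPM was most like that of Hoxa11 were Slc12a2 (Pearson r = 0.817), Sec23a (0.816), Zfp354c (0.811), Vcan (0.810) and Lrp6 (0.806). Hoxd11 was too low for such a comparison, and Hoxc11 was taken in its place after the values were seen. By Spearman's rho, 1 of these 5 was among the 5 most like Hoxa11. The genes most like Hoxc11 were Trip10 (r = 0.911), Speg (0.897), Arntl2 (0.890), Rab11fip3 (0.889) and Ajuba (0.888). None of these was among its 5 most like by Spearman's rho, which was 0.818, 0.795, 0.776, 0.732 and 0.726, so which genes lead depends on the measure. Hoxc11 had an r of 0.885 with its neighbour Hoxc10, 0.833 with Tbx4, 0.805 with Pitx1 and 0.459 with Hoxa11. Hoxa11 had an r of 0.699 with Hoxa11os and 0.415 with Hoxc10. These values describe libraries that share days, diets and tissue make-up, and carry no test.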

How the data were processed

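RNA of 30 calli was sequenced from poly(A)-selected, stranded libraries. Per the labels and methods, the authors aligned reads to GRCm38 with HISAT2 2.1.0, counted them per gene with HTSeq and deposited raw counts without normalization. The strand setting and annotation of the counting are not given in the sources used here. Genes were matched by Ensembl identifier to GENCODE M21, which gave 42548 of 43629.

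Counts were tested in R 4.3.3 with edgeR 4.0.16 (TMM, filterByExpr, two-sided quasi-likelihood test, Benjamini-Hochberg threshold 0.05), with the 12 lean libraries in 1 fit, the 18 DIO libraries in 1, the 6 of each day in 1, and 24 libraries for change of the diet difference and for time courses (polynomials of degree 2). Of the HOX genes, 30 passed the filter in the fits of 12, 18 and 24 libraries. The scripts were tested on simulated data. There, the day tests found few 2-fold changes in genes under 20 CPM, 10 of 57 on lean d10 and 4 of 41 on DIO d21 against d3.

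Members, lists and tests were chosen with earlier results of these data known. Named genes are the group 11 genes, the HOX genes past the threshold or among the 10 highest per kilobase, genes of the limb, cofactor and noncoding lists, at most 4 of each other list, and the 5 most like Hoxa11 and Hoxc11. Replicate numbers mark different mice. Within groups, each of the 30 library pairs differed by more than sampling noise (chi-square per degree of freedom 12.8 to 148). Whether calli were from separate experiments is not stated. Alternatives were DESeq2 1.42.0, RLE and upper-quartile factors, other filters, the replicate block, all 30 libraries in 1 fit and each mouse left out. Some genes of the lists are counted but not reported here by name.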

Additional observations from a re-analysis of the deposited data

Results flagged for a closer look

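Hoxb6 was the HOX gene whose time course differed between lean and DIO mice over d3 to d10 by a test of the difference itself (adjusted p = 0.0461, edgeR quasi-likelihood test over 24 libraries). The DIO mice were all lower than the lean mice on d5 and all higher on d10. The edgeR test of a change of the diet difference over d3 to d10, all days together, gave an adjusted p of 0.0857 for this gene. The time course call was made in 6 of the 24 fits that leave out 1 mouse.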

How the results depend on the processing

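The counts of HOX genes called held within 1.5 times under most alternatives. Upper-quartile factors gave 1 call on DIO d10 in place of 0 (Hoxa9). DESeq2 gave 1 in place of 0 for the diet difference between days and 2 in place of 1 for the time courses. Without a filter but 1 count, and with the replicate block, the time courses gave 0. Without DIO d21, an alternative chosen after seeing the data, the count between any DIO days was 5 in place of 15. That fit had fewer samples, and its share of all genes is not given here, so the 2 counts cannot be compared. The causes of the other moves were not tested. Same-numbered libraries did not deviate together in any of the 12 comparisons, so the numbers pair no mice, and with the block Hoxc9 was called on lean d10 as well, while the other counts stood as they were (12 on DIO d21 and 15 between any DIO days). Hoxd11 had no test under the default filter.

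Leaving out 1 mouse at a time gave 1 to 3 calls between any lean days (1 without lean d10 replicate 1), 1 to 6 on lean d10, 12 to 15 between any DIO days, 0 to 1 on DIO d10 (1 without DIO d10 replicate 1), 3 to 6 on DIO d14 (3 without DIO d3 replicate 1 or DIO d14 replicate 1), 11 to 15 on DIO d21 and 0 to 2 for the time courses. Log2 differences that did not pass turned direction without 1 mouse and ran, for Hoxc11, from -0.109 to 0.35 on lean d5, -0.286 to 0.172 on lean d7, and between diets -0.0565 to 0.275 on d5, -0.0684 to 0.261 on d7 and -0.0521 to 0.449 on d10. For Hoxa11 they ran from -0.399 to 0.0992 on DIO d10 and -0.448 to 0.0291 on DIO d14. Genes near 3 counts are limited by counting error, and the others by the spread between 3 mice. With Spearman's rho in place of Pearson's r, 4 of the 10 correlations with Hoxa11 and Hoxc11 moved, all 4 of them with Hoxc11 and downward.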
